A study of Mus musculus with 4 samples.

Results

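The mouse induced pluripotent stem cell line iPS-J was set against one embryonic stem cell line, ESC, on Agilent one-colour whole-genome expression arrays. The pair was chosen by sample title, and it makes up 2 of the 4 arrays of a study that compared the expression profiles of iPS-OSH, iPS-J, ESC and mouse embryonic fibroblasts (MEF), with 1 array for each. ESC had a 129SV genetic background, whereas iPS-J, iPS-OSH and MEF were C57BL/6. The 3 pluripotent lines were kept in serum-containing medium with leukemia inhibitory factor (LIF), and MEF in serum medium without it. How iPS-J was reprogrammed, its passage and its relation to iPS-OSH are not given in the sources used here. Each line is represented by 1 RNA sample, so no difference below has a replicate check or a p-value, and differences are described by size. ESC differed from iPS-J in strain and was scanned in another session, and neither can be told apart from cell type in this comparison.

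Embryonic stem cells come from the inner cell mass of the blastocyst, and induced pluripotent cells are somatic cells brought to a like state by ectopic transcription factors. Both hold a network of factors around Pou5f1 (Oct4), Sox2 and Nanog. In the blastocyst the other derivative of the inner cell mass is primitive endoderm, which is specified by Gata6 and Gata4, forms visceral and parietal endoderm, absorbs nutrients through the cubilin, amnionless and megalin receptors, and lays down laminin and type IV collagen. Cultures of embryonic stem cells also hold rare cells that pass through a state with transcripts of the 2-cell embryo, of which the Zscan4 cluster is the best known.

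A level is given here as the processed signal of the scanner software (background-subtracted Cy3 brightness), and a difference as iPS-J minus ESC in log2 units after each array was brought to a common 75th percentile. A fold is 2 to the power of that difference, so it need not equal the ratio of the printed signals. A gene was read from its brightest probe and compared where the scanner software called that probe well above background on one array or both, which held for 29676 of 35242 genes. Where it was so on 1 array only, the difference is a lower bound. Probes printed repeatedly on an array had a median SD of 0.095 log2 units on the iPS-J array and 0.15 on the ESC array, or 0.18 for a difference. This covers spots only, not cultures.

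Upstream sequences are shown first for Zfp42, lower in iPS-J, and for Zscan4c and Zscan4d of the Zscan4 cluster, whose compared genes were lower. Foxa2, an endoderm factor that was higher, is shown as well. They were picked among the genes with an entry in the promoter table because they hold a searched motif. The sequences are the 250 bases before the annotated start, from RefSeq on GRCm38.p6. They run 5′ to 3′ in the direction of transcription, with matches to a searched motif in capitals. The first is Zfp42, at chr8:43307010-43307259 on the minus strand, with an octamer (ATGCAAAT, the recognition sequence of POU factors) in capitals. The next pair is Zscan4c, at chr7:11005495-11005744 on the plus strand, and Zscan4d, at chr7:11166149-11166398 on the minus strand, with the paired homeobox motif TGATTNNATCA in capitals. The last is the 1 of the 3 annotated starts of Foxa2 with a match, at chr2:148045465-148045714 on the minus strand, with the GATA motif AGATAA in capitals.
Zfp42: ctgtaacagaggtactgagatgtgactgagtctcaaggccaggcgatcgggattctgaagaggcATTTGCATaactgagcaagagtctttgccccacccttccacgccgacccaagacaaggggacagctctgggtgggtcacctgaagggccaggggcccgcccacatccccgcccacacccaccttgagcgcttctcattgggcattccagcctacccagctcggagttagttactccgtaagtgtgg
Zscan4c: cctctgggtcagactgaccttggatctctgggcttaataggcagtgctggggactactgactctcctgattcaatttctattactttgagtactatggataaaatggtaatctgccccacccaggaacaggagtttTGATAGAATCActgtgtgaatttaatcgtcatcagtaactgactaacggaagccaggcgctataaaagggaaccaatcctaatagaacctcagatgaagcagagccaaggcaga
Zscan4d: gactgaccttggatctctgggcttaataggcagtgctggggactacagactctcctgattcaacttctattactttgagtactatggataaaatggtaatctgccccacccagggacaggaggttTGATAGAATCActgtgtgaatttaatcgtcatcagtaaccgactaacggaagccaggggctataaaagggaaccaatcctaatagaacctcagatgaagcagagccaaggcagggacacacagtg
Foxa2: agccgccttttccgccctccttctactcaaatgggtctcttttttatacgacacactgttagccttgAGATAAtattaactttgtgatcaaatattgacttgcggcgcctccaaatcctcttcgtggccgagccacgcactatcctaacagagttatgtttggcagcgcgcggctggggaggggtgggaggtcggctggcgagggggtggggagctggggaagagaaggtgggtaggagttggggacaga

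Both strands were searched, and the share of all 32851 promoter windows of this length that hold each motif gives the background. TGATTNNATCA was in 0.177% of all windows and in the windows of all 4 Zscan4 genes of the table (Zscan4b, Zscan4c, Zscan4d and Zscan4f), whose upstream sequences are near copies: those of Zscan4c and Zscan4d match at 232 of 239 aligned bases. ATGCAAAT was in 1.60% of all windows. AGATAA was in 9.99% of all windows and in 5 of 38 windows of the endoderm genes that were at least 2-fold higher in iPS-J, and in 3 of 14 windows of 2-cell genes. AACAAAG, a Sox motif, was in 5.03% of all windows and 2 of those 38. A match is a string of letters, and nothing was measured at these sites.

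Of the 29676 genes compared, 1644 were at least 2-fold higher in iPS-J (5.54%) and 7669 at least 2-fold lower (25.8%), with a median difference of -0.21. The surplus of lower genes lay among dim ones. In the brighter set, the 14838 genes above the median brightness, 6.09% were higher and 7.65% lower, with a median of 0.18. In the dimmer set, the other 14838, 4.99% were higher and 44% lower, with a median of -0.86. In 4 equal bands of brightness, from dim to bright, the median difference was -0.97, -0.71, 0.04 and 0.27. On the iPS-J array 67.0% of spots were well above background, against 78.4% on ESC. What moves dim signals between these arrays was not tested. Lists of genes are therefore read against the brighter set where most of their members lie there, and a lower call of a dim gene is near the background. The split between directions also moved with scaling: 17.7% of the genes past 2-fold were higher in iPS-J as given, 29.3% after scaling on spike-in probes, 45.4% after quantile normalization and 48.4% after centring over brightness.

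**Figure D1:**
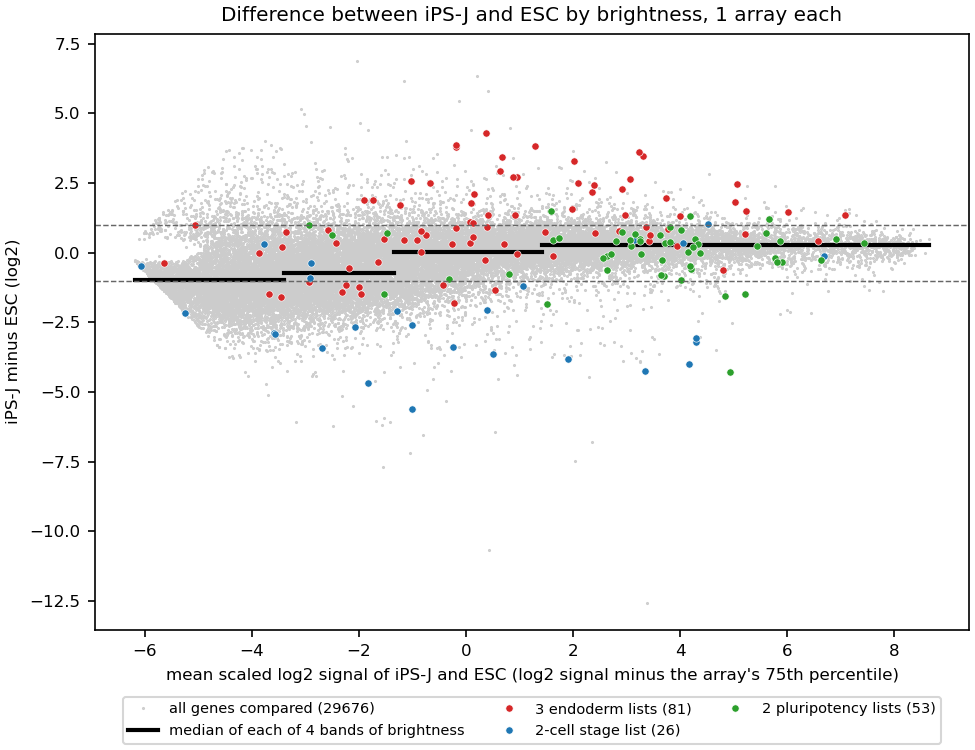
Difference between iPS-J and ESC (log2, vertical) against mean scaled log2 signal of the 2 arrays (horizontal) for 29676 genes, with the median of each of 4 bands of brightness as black bars and the 2-fold lines dashed. Endoderm genes (red) extend upwards and 2-cell stage genes (blue) downwards from the bulk, pluripotency genes (green) mostly lie between the dashed lines, and the grey bulk sinks below 0 at low brightness.

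The core pluripotency factors Pou5f1, Sox2 and Nanog were within 2-fold between the lines, and Zfp42 differed most among the naive factors. Of 24 naive pluripotency factors, all in the brighter set, 2 were at least 2-fold higher, 2 lower and 20 within 2-fold, with a median of -0.03. Among all genes of that set 6.09% were higher and 7.65% lower, so these shares are near those of bright genes at large. Zfp42 (Rex1), a zinc finger gene used as a marker of naive cells, gave a signal of 8441 in iPS-J and 172198 in ESC, with 7251 in iPS-OSH and 15.6, not well above background, in MEF. ESC alone was high, and both induced lines were about alike. The difference was -4.27 (19.3-fold lower), at a single probe at chr8:44380667-44380726 (mm9). Under the alternative settings it lay between -4.55 and -4.09.

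Pou5f1, the POU factor at the centre of the network, gave 11868 in iPS-J, 7401 in ESC, 10442 in iPS-OSH and 83.5 in MEF. Its difference was 0.76. Sox2, its partner on DNA, gave 13954, 17743 and 14469 in iPS-J, ESC and iPS-OSH, and was at background in MEF. Nanog gave 64738, 86762 and 80560 in the same order, and 183 in MEF. The Sox2 and Nanog differences of -0.27 and -0.34 stayed within 2-fold, and a second Nanog probe gave 0.87. Klf4, a reprogramming factor, was equal within spot error at 21725 in iPS-J and 22352 in ESC.

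Among other naive factors Klf2, which like Klf4 sustains self-renewal, was lower in iPS-J, at 20186 against 63054, a difference of -1.56. Gbx2, a LIF target, was higher, at 6143 against 2302 (1.50), and iPS-OSH matched iPS-J at 6268. Klf5 was higher too, at 35050 against 14809 (1.32). Prdm14, a repressor that guards the naive state, gave 1616 against 2905, a difference of -0.77, and Esrrb gave 62563 against 74913.

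Of 29 further pluripotency markers compared, 2 were higher and 3 lower, with a median of 0.35. In the brighter set it was 1 and 2 of 25, beside 6.09% higher and 7.65% lower among all genes there. Dppa3 (Stella), a maternal factor that protects DNA methylation, gave 1822 in iPS-J, 6916 in ESC and 2336 in iPS-OSH (-1.85). Fbxo15, a target of Oct4 and Sox2, gave 26967, 79667 and 28100 (-1.48). For both, the induced lines lay together below ESC. Utf1, a chromatin-associated factor, went the other way, at 93412 in iPS-J against 43082 in ESC (1.20), with 107759 in iPS-OSH. Dppa5a, at 239881 and 196685, and the growth factor gene Fgf4, at 57037 and 50713, were within 2-fold.

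Genes of primitive endoderm were higher in iPS-J than in ESC. Of 18 primitive endoderm factors compared, 11 were higher by 2-fold or more and 3 lower, and the median was 1.74. In the brighter set 10 of 12 were higher and 0 lower, where 6.09% of all genes were higher. Gata4 and Gata6 are the zinc finger factors that specify this lineage. Gata4 gave 11136 in iPS-J, 823 in ESC, 718 in iPS-OSH and 301 in MEF. iPS-J stood alone above the other 3 arrays, and its difference from ESC was 3.84 (14.3-fold), at chr14:63817858-63817917 (mm9). Gata6 gave 6329 in iPS-J against 621 in ESC, 1008 in iPS-OSH and 1410 in MEF, a difference of 3.43 (10.8-fold).

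The SRY-box factors Sox17 and Sox7, which act downstream of the GATA factors, showed the same order of arrays as Gata4. Sox17 gave 3979 in iPS-J, 303 in ESC, 241 in iPS-OSH and 68.7 in MEF. Its difference was 3.79, and a second probe gave 2.77. Sox7 gave 4065, 296, 277 and 88.3 in that order (3.86, 14.5-fold). Foxa2, a forkhead factor of endoderm, gave 1797 against 336 (2.50), and a second probe gave 3.43. Hnf4a, a nuclear receptor of visceral endoderm, gave 2585 against 1073 (1.35). Srgn, which encodes the proteoglycan core protein serglycin, gave 39891 against 3799 (3.47), with 1240 in iPS-OSH and 867 in MEF. Foxq1 was higher by 2.72. Pdgfra, the receptor that marks early primitive endoderm, gave 2780 against 683 (2.10), but iPS-OSH was as high at 3146 and MEF higher at 11364. The 3 lower members, Gsc, Foxa1 and Lhx1, were dim genes with signals under 500 in both lines, and a second Lhx1 probe gave 1.59.

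Genes of the absorptive visceral endoderm followed in part. Of 35 compared, 15 were higher and 6 lower, with a median of 0.65, and in the brighter set 13 of 24 were higher and 2 lower. The receptor complex that takes up proteins at the apical membrane was higher as a whole. Cubn (cubilin) gave 39892 in iPS-J, 3471 in ESC, 1230 in iPS-OSH and 574 in MEF, and its 2 probes gave differences of 3.60 and 3.61. Amn (amnionless), the membrane anchor of cubilin, gave 15335, 1650, 927 and 120 (3.30). Lrp2 (megalin) gave 20273, 4390, 2583 and 761 (2.29), while a second probe gave 0.83. Dab2, the endocytic adaptor of megalin, gave 5699 against 911 (2.72), with 1213 in iPS-OSH and 3263 in MEF. For Cubn, Amn and Lrp2, ESC was the next highest array.

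Among lipid carriers, Apoc2 gave 6907 in iPS-J, 376 in ESC and 3682 in iPS-OSH (4.28, 19.4-fold), so that here iPS-OSH lay nearer to iPS-J. Apoe, at 129519 against 50194, was higher by 1.45, and Mttp, which loads lipid onto apolipoprotein B, by 1.73. The protease genes Ctsh and Dpp4 were higher by 2.18 and 1.78. Other usual markers of visceral endoderm were low in both lines. Afp was not well above background on either array, Ttr gave 120 against 109 (0.22), and Apoa1 was not well above background in iPS-J. Rbp4, a retinol carrier, was lower at 1118 against 2966 (-1.33).

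**Figure D2:**
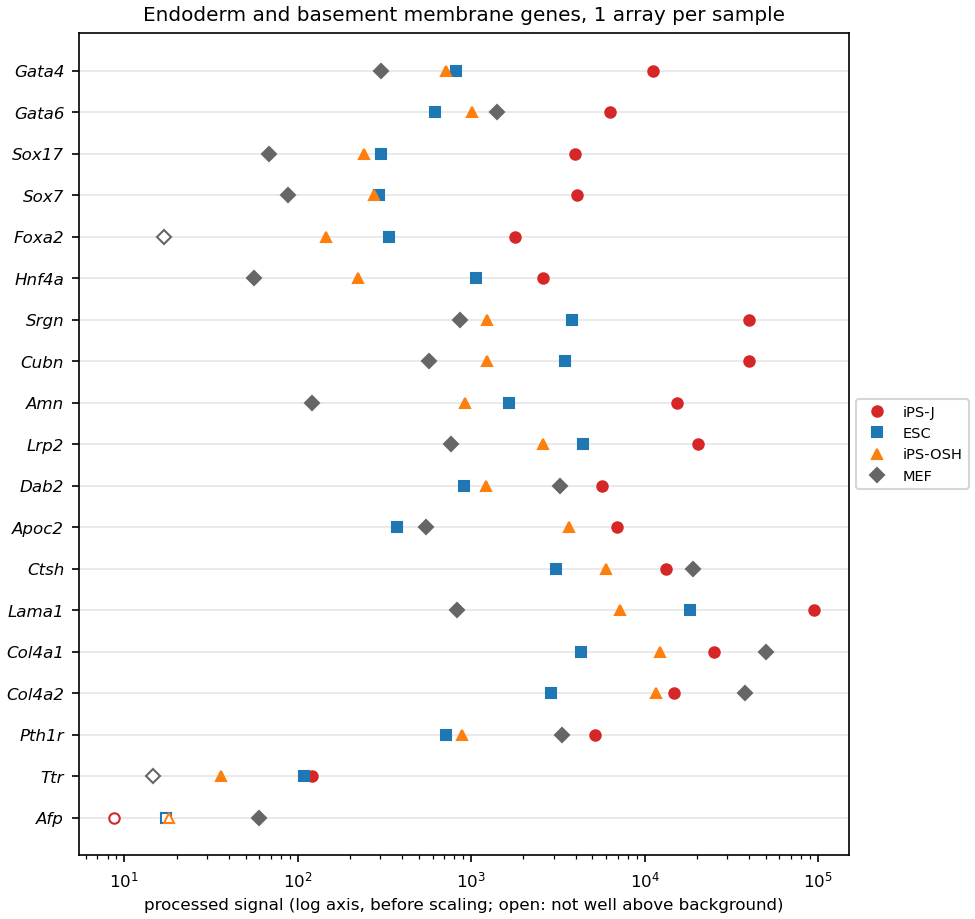
Processed signals of 19 endoderm and basement membrane genes on the 4 arrays (log axis), with open symbols for signals not well above background. iPS-J (red circles) is the highest array for the 6 factors from Gata4 to Hnf4a and for Cubn and Amn, MEF (grey diamonds) is highest for Col4a1, Col4a2 and Ctsh, and Afp and Ttr stay low in iPS-J.

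Basement membrane genes of parietal endoderm were higher in part. Of 28 compared, 11 were higher, 1 lower and 16 within 2-fold, with a median of 0.81. In the brighter set 11 of the 26 were higher. Lama1, the laminin alpha chain of early embryonic basement membranes, gave 94970 in iPS-J, 18331 in ESC, 7188 in iPS-OSH and 831 in MEF (2.45, 5.47-fold). Its partner chains Lamb1-1 and Lamc1 were higher by 1.82 and 1.50. Col4a1 and Col4a2, the chains of the main type IV collagen, gave 25103 against 4274 (2.63) and 14820 against 2888 (2.44). Unlike Lama1, both were highest in MEF, at 50180 and 37859. Serpinh1, the collagen chaperone, was higher by 1.97, with 31932 in iPS-J, 32398 in iPS-OSH and 189989 in MEF. Pth1r, the parathyroid hormone receptor that parietal endoderm carries, gave 5166 against 716 (2.93). Sparc was higher by 1.35, and the keratins Krt8 and Krt18 by 1.35 and 1.32. Col4a6 was lower, at 557 against 2032 (-1.79). Plat, Krt7 and Thbd of the same list were within 2-fold, at 0.49, 0.44 and -0.26.

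The iPS-OSH level, on the scaled log2 axis, lay nearer to ESC than to iPS-J for 10 of the 11 higher primitive endoderm factors, 13 of the 15 visceral endoderm genes and 7 of the 11 basement membrane genes. In an RNA sample from a whole culture, a larger share of cells of a type and more RNA per cell cannot be told apart, so these levels do not say how many iPS-J cells carried endoderm transcripts.

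The list of markers kept for each cell type that such a culture could hold gave the setting for these values. Of 11 endoderm markers, 9 were at least 2-fold higher in iPS-J, and their summed signal was 180216 in iPS-J, 27029 in ESC, 12012 in iPS-OSH and 3541 in MEF. The 9 fibroblast markers summed to 68206 in iPS-J, 57994 in ESC, 465872 in iPS-OSH and 1735974 in MEF, and 0 of them passed 2-fold between iPS-J and ESC. Thy1 gave 22518 and 17861, and Col1a1 gave 9759.7 and 9644. The 8 pluripotency markers summed to 451216 and 575463, but their median difference was 0.28. Of these, 0 were at least 2-fold higher and 1 lower, which was Zfp42 (-4.27). Trophoblast, neuroectoderm and endothelium markers stayed low, with highest single signals in iPS-J of 214, 501 and 294. Of the endothelium markers Cdh5 was higher by 1.45 and Tek lower by 1.24. Cdx2, the defining trophoblast factor, gave 76.2 and 103. The macrophage and mesoderm sums were 3127 against 3617 and 10672 against 6393. Of these markers 0 were at least 2-fold higher in iPS-J, and the mesoderm marker Kdr was higher by 0.83.

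Transcripts of the 2-cell state were lower in iPS-J. Of 26 genes compared, 18 were lower by 2-fold or more and 1 higher, and the median was -2.64. In the brighter set 12 of 16 were lower, where 7.65% of all genes were lower. The Zscan4 genes encode zinc finger proteins tied to telomere upkeep. Upstream sequences are printed above for Zscan4c and Zscan4d only, and no value is given for Zscan4d. Zscan4c gave 2817 in iPS-J, 56223 in ESC, 5017 in iPS-OSH and 75.1 in MEF. Its difference was -4.24 (18.9-fold lower), at chr7:11595751-11595810 (mm9), and 2 more probes gave -3.93 and -3.55. Zscan4e gave 7955, 76404 and 8000 in iPS-J, ESC and iPS-OSH (-3.18), and Zscan4f gave 8249, 72504 and 8291 (-3.06). In all of these the induced lines lay together and ESC stood above them.

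Some members of the cluster are near copies, and a probe can bind more than 1 of them. The Zscan4c and Zscan4a probes, each 60 bases, match at 56 of 58 aligned bases, and the Dub1 probe, for a deubiquitinase of the Usp17 family, matches that of the pseudogene Usp-ps at 52 of 57. The stretches that differ most between the pairs are shown with unlike bases in capitals.
Zscan4c probe: aaatgcattgcctcttcagacatctcatGC
Zscan4a probe: aaatgcattgcctcttcagacatctcatAT
Dub1 probe: CctgtagagatagatgCtcttattcttAgt
Usp-ps probe: ActgtagagatagatgTtcttattcttTgt
Zscan4a gave 3495 against 42246 (-3.52). The values of these pairs may therefore be shared between copies, and binding across copies was not measured. Other pairs of probes are less alike. The Zscan4c and Zscan4f probes match at 15 of 25 aligned bases, and those of Zscan4f and Zscan4e at 11 of 28. The Dub1 and Dub1a probes match at 12 of 29. Unlike probes can lie on different parts of near-copy transcripts, so these counts cannot show that their values are separate. All 5 Zscan4 genes and all 5 genes of the Usp17 group were at least 2-fold lower, families that were picked after their values were seen.

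Tcstv3, a 2-cell gene of unknown function, gave 86.2 in iPS-J, 4488 in ESC and 35.2 in iPS-OSH (-5.62). AF067061 gave 5440, 91979 and 4346 (-4.00), with a second probe at -3.68. Tdpoz3 and Dub1a were lower by 3.43 and 4.66, on dim signals of 56.9 and 67.8 in iPS-J. A second Dub1 probe gave 0.13 beside -3.40 for the first. Eif1ad was the 1 higher member, at 39927 against 20410 (1.05). For all 18 lower genes the scaled iPS-OSH level lay nearer to iPS-J than to ESC.

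Germline and meiotic genes were lower in iPS-J too. Of 39 compared, 20 were lower and 0 higher, with a median of -1.07, and 13 of 26 in the brighter set were lower. Stra8, which is switched on by retinoic acid at meiotic entry, gave 380 in iPS-J, 9387 in ESC and 358 in iPS-OSH (-4.55, 23.4-fold lower). Kit, the stem cell factor receptor, gave 1615, 6790 and 2606 (-1.99). Dazl, an RNA-binding protein of germ cells, gave 336, 1225 and 369 (-1.79), and the homeobox gene Rhox9 gave 2654, 9623 and 1876 (-1.78). Xlr3a, Xlr4a and Xlr5a of the X-linked lymphocyte-regulated family were lower by 2.31, 1.91 and 1.94. For all 20, iPS-OSH lay nearer to iPS-J. With a 4-fold threshold 3 of the 20 were left.

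**Figure D3:**
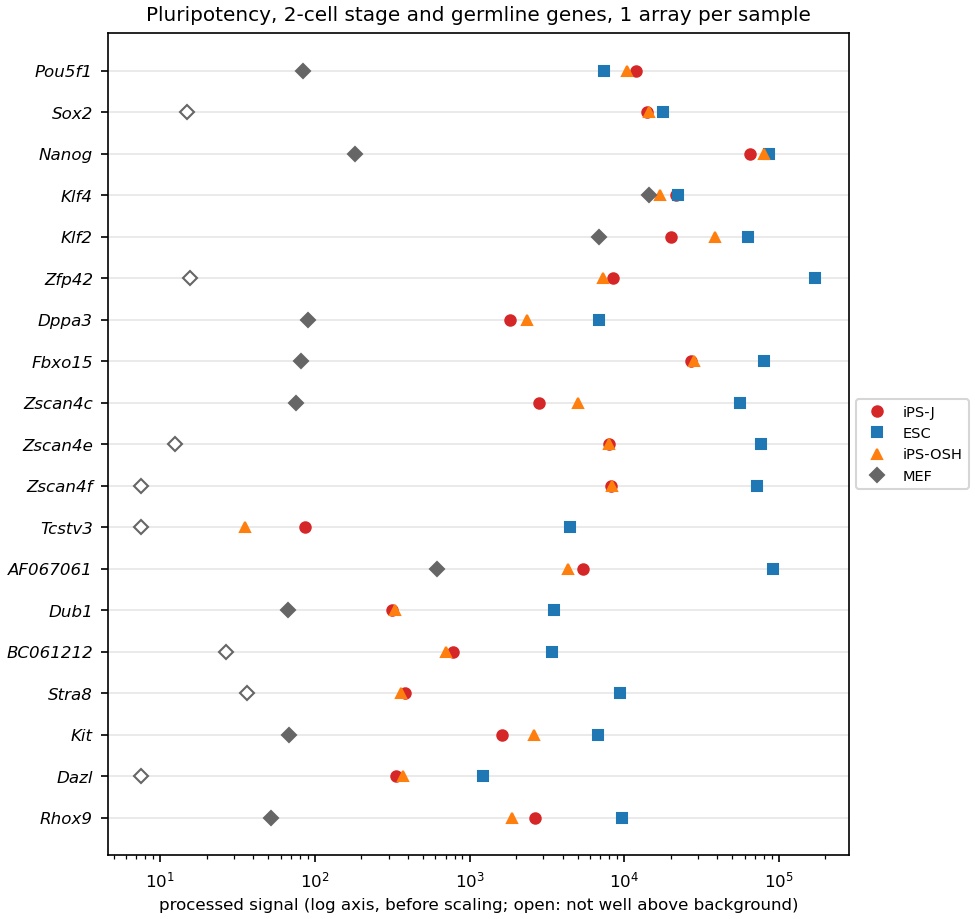
Processed signals of 19 pluripotency, 2-cell stage and germline genes on the 4 arrays (log axis), with open symbols for signals not well above background. From Zscan4c to Rhox9, and for Zfp42, ESC (blue squares) is the highest array and both induced lines lie below it, while Pou5f1, Sox2, Nanog and Klf4 are at like levels in the 3 pluripotent lines.

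Genes of the primed epiblast, the state after implantation, gave 3 higher and 3 lower of 23, and in the brighter set 3 and 2 of 21. Among all genes of the brighter set 6.09% were higher and 7.65% lower. Sox3, a neural and epiblast SOX factor, gave 438 against 1676 (-1.86), and Zic2 gave 634 against 1503 (-1.17). The claudin gene Cldn6, at 3617 against 1311, was higher by 1.54. Trophoblast genes gave 1 higher and 5 lower of 24, with 3 of 15 lower in the brighter set. The neuroectoderm and mesoderm lists held mostly dim genes and gave 2 higher and 9 lower of 27, and 3 and 6 of 20, beside 44% lower among all genes of the dimmer set. Of neuroectoderm genes Hesx1, a forebrain homeobox gene, was higher, at 1402 against 471 (1.65), and Pax7 was lower at 96.8 against 514 (-2.33). Runx1, the blood and hair-follicle Runt factor, gave 2183 against 550 (2.07), with 0.93 at a second probe. The medians of the trophoblast and mesoderm lists, -0.36 and -0.33, turned to 0.02 and 0.07 after centring over brightness, and the mesoderm median to 0.08 after quantile normalization.

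Of 37 imprinted genes 8 were higher and 7 lower. In the brighter set 6 of 29 were higher and 2 lower, and the lower share is near the 7.65% of all genes there. Peg3, a paternally expressed zinc finger gene, gave 6193 in iPS-J, 1228 in ESC, 11743 in iPS-OSH and 3408 in MEF (2.41), with 2.77 at a second probe. ESC was the lowest of the 4 arrays. Grb10, an adaptor that limits insulin and IGF receptor signals, gave 1925 against 288 (2.82). Cdkn1c, a maternally expressed cell cycle inhibitor, gave 14248 against 4673 (1.69). Of the noncoding RNAs of the Dlk1-Dio3 domain, Meg3 (Gtl2) gave 6409 in iPS-J, 15961 in ESC, 28630 in iPS-OSH and 35824 in MEF. Its 3 probes gave -1.24, -1.86 and -1.16, and iPS-J was the lowest array. Mirg, the microRNA host of the same domain, gave 1123, 3316, 5673 and 7876 (-1.48), with -1.15 at a second probe. The paternally expressed Dlk1 of that domain gave 1964 against 2145.

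Chromatin genes were mostly level. Of 24 genes of DNA methylation and demethylation, 4 were higher and 2 lower. Dnmt3l, the cofactor of the de novo methyltransferases, gave 106325 against 36604 (1.62), with 73867 in iPS-OSH. Of 38 Polycomb and related regulators, 5 were higher and 0 lower. In the brighter set the methylation list gave 4 higher and 1 lower of 23, and the Polycomb list 3 and 0 of 32. Among all genes there, 6.09% were higher and 7.65% lower. Ehmt2 (G9a), a histone H3 lysine methyltransferase, gave 80140.5 against 28886 (1.55).

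Of 31 genes of FGF and ERK signalling, 6 were higher in iPS-J and 0 lower. In the brighter set it was 6 and 0 of 26, beside 6.09% higher and 7.65% lower among all genes there. Fgf10, a ligand, gave 1903 against 261 (2.94). The receptors Fgfr3 and Fgfr4 gave 3817 against 803 (2.33) and 2663 against 985 (1.51), but second probes gave -0.18 and -0.43. The target Etv4 gave 35143 against 12537 (1.57) with 1.19 at a second probe, and the inhibitor Spry4 was higher by 1.18. Of the LIF pathway 2 were higher and 1 lower of 23, and of Nodal, activin and TGF-beta 1 and 0 of 30.

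In the BMP list 5 were higher and 2 lower of 25, and in the brighter set 4 and 2 of 17. Among all genes of the brighter set 6.09% were higher and 7.65% lower. The ligand Bmp4 gave 23068 against 7264 (1.75), and its targets Id1 and Id2 were higher by 1.55 and 1.51. Other targets did not follow: Id3 gave -0.39 and Id4 -0.71, and Msx1 was lower at -1.89. The antagonist Nog was lower, at 509 against 1389 (-1.37). In the Wnt list 6 were higher and 3 lower of 45, and in the brighter set 4 and 3 of 27. The secreted inhibitor Dkk1 gave 3094 in iPS-J, 367 in ESC, 277 in iPS-OSH and 51.8 in MEF (3.16, 8.91-fold), so that iPS-J stood alone. Sfrp4 and Sfrp5, also secreted inhibitors, were lower by 2.05 and 1.82, while Sfrp1 and Dkk2 of the same families were higher by 1.36 and 1.12. Ihh, the hedgehog ligand of visceral endoderm, gave 704 against 200 (1.90).

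**Figure D4:**
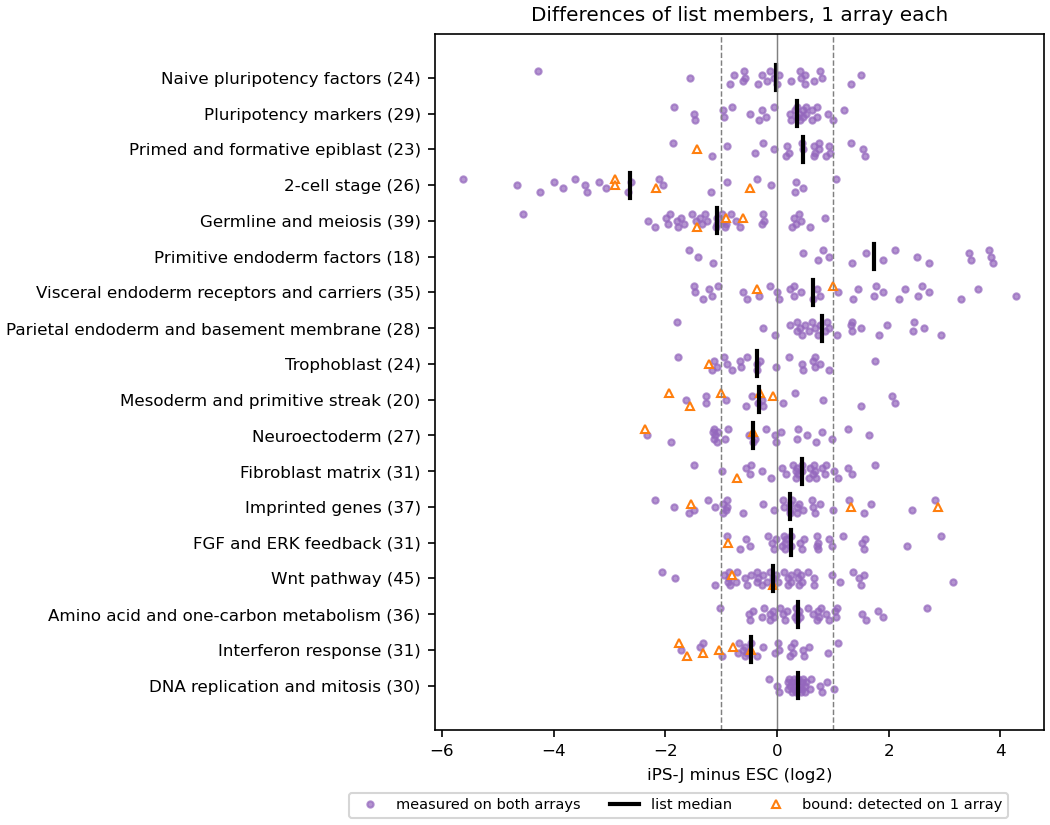
Difference between iPS-J and ESC (log2) of each compared member of 18 gene lists, with the list median as a black bar, triangles for lower bounds and dashed lines at 2-fold. The 3 endoderm lists have medians of 1.74, 0.65 and 0.81, and the 2-cell and germline lists -2.64 and -1.07, while most other lists centre near 0.

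Reprogramming factors other than Myc were within 2-fold, with 1 higher and 0 lower of 10. In the brighter set, where 6.09% of all genes were higher and 7.65% lower, it was 1 and 0 of 9. Myc gave 3901 in iPS-J, 1370 in ESC, 10985 in iPS-OSH and 7299 in MEF (1.59), and ESC was the lowest array. The arrays do not tell endogenous from introduced transcripts. Of the cell cycle regulators 6 were higher and 0 lower of 27. In the brighter set it was 6 and 0 of 26, beside 6.09% higher and 7.65% lower among all genes there. Cdkn1b (p27), a CDK inhibitor, gave 6100 against 1672 (1.95), with 0.28 at a second probe, and Perp, a p53 target, gave 13727 against 4995 (1.54). Of 30 replication and mitosis genes, 29 were within 2-fold. In the brighter set 1 of 29 was higher and 0 lower, beside the same shares of all genes.

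Amino acid genes gave 8 higher and 1 lower of 36. Atf4, the transcription factor of the amino acid response, gave 156828 against 57773 (1.52), with 1.63 at a second probe. Of its known targets, Chac1 was higher as well, at 17398 against 5277 (1.80). The target Cth, which makes cysteine, was higher too, at 16270 against 2671 (2.69, and 3.19 at a second probe). Slc1a5, a glutamine carrier, was higher by 1.59, and Trib3 and Psph by 1.06 and 1.03. Most of the list did not follow: 27 of the 36 were within 2-fold, among them Asns (0.64), Atf5 (0.34), Ddit3 (0.33) and Sesn2 (0.14). Glycolysis and hypoxia genes gave 6 higher and 1 lower of 39. Pdk1, a pyruvate dehydrogenase kinase, gave 15678 against 4139 (2.00), Vegfa was higher by 1.31, and Ldhb was lower at 20533 against 51830 (-1.26). Sterol genes gave 5 higher and 1 lower of 35. Fdps, the farnesyl diphosphate synthase, was the lower one, at 19780 against 57284 (-1.45). In the brighter set the amino acid list gave 8 higher and 1 lower of 34, the glycolysis list 6 and 1 of 37. The sterol list gave 5 and 1 of 32 there. Among all genes of that set 6.09% were higher and 7.65% lower.

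Mesenchymal and matrix genes were mostly within 2-fold, with more higher than lower in iPS-J, and the contractile genes named here were highest in MEF. Of 31 matrix genes 5 were higher and 1 lower, with a median of 0.44, and of 29 mesenchymal and smooth muscle genes 7 and 1, with 0.55. In the brighter set 4 of 22 and 7 of 21 were higher and 0 lower, beside 6.09% higher and 7.65% lower among all genes there. Acta2, smooth muscle actin, gave 16524 in iPS-J, 6556 in ESC, 133517 in iPS-OSH and 531793 in MEF (1.41). Tagln and Myl9, of the same contractile programme, were higher by 1.30 and 1.53, and MEF was again highest. Nt5e (CD73), an ectonucleotidase, did not follow that order: it gave 1364 in iPS-J, 228 in ESC, 669 in iPS-OSH and 143 in MEF (2.66). Of 32 epithelial junction genes 4 were higher, among them Cldn3, a tight junction claudin, at 1553 against 731 (1.17). Interferon genes gave 1 higher and 7 lower of 31, and MHC genes 0 and 4 of 30, no more often lower than the 25.8% of all genes compared. Among MHC genes H2-Q7 gave 1933 in iPS-J, 5784 in ESC and 11555 in iPS-OSH (-1.50).

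Ribosomal and housekeeping genes gave 2 higher and 1 lower of 29, with a median of 0.36. All of them lay in the brighter set, where 6.09% of all genes were higher and 7.65% lower. Actb was higher by 0.77. The brightest Rps3 probe gave 1.57 while 2 others gave -0.22 and -1.35. Both lines carried Y-linked transcripts: Ddx3y gave 3006 in iPS-J and 2486 in ESC, and Eif2s3y gave 4287 and 5543. The brightest Xist probe, for the RNA that coats the inactive X, was not well above background in either line, and a second, dim one gave 2.51.

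Among strain-variable genes, 3 were higher and 1 lower of 15. In the brighter set it was 2 and 0 of 11, beside 6.09% higher and 7.65% lower among all genes there. Gbp1 (now Gbp2b), a guanylate-binding protein, was well above background in ESC alone, at 292, and was at least 9.74-fold lower in iPS-J. That bound depends on the detection floor, and under the alternative settings the log2 difference was as small as -1.20. A second probe gave -4.40. Pop4, an RNase P subunit, gave 23023 in iPS-J, 3293 in ESC, 23693 in iPS-OSH and 33347 in MEF (2.88), so that the 3 C57BL/6 samples were alike and the 129SV one low. Lgals6, a copy of the galectin gene Lgals4 that only some mouse strains carry, gave 72.3 in iPS-J, 7077 in ESC, 52.7 in iPS-OSH and 64.1 in MEF (-6.53). Lgals4 itself gave 517, 11324, 275 and 140 (-4.37), with -3.10 and -4.13 at its other probes. The probes named for the 2 genes have neighbouring mm9 positions, at chr7:29626576-29626635 and chr7:29626658-29626717. Whether the Lgals6 probe also reads Lgals4 transcripts was not tested. ESC was the only high array for both.

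The largest single differences among genes with a common symbol were of mixed support. Dph5 stood lowest, at 163 against 1037506, but its ESC spot was saturated, and the second Dph5 probe gave 0.34. Ppp1r14d, a phosphatase inhibitor subunit, gave 374 in iPS-J, 70753 in ESC and 449 in iPS-OSH (-7.49). Ccl6, Myom2 and Pramel6 gave -6.19, -5.95 and -4.59, with iPS-J signals under 100. At the other end Peli3, an E3 ubiquitin ligase of Toll-like receptor signalling, gave 12605 in iPS-J against 164, 170 and 47.5 in ESC, iPS-OSH and MEF (6.35). Gc, the vitamin D carrier of plasma, gave 4615 in iPS-J, 68.0 in ESC and 4349 in iPS-OSH (6.16), while a second probe gave -0.89. Plek2, Cd59a and Dok2 were higher by 4.39, 4.48 and 3.66, with iPS-J the highest of the 4 arrays for each.

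The largest bounds were of dim signals. Kcnb2, a potassium channel, was well above background in ESC at 786 and not in iPS-J, at least 26.2-fold lower, and Slc15a2 at least 21.6-fold. Among the bounds in the other direction Vmn1r205 gave 742 in iPS-J and was not well above background in ESC, at least 23.6-fold higher. These bounds hold only for the lowest signal called well above background here. Under the alternative settings the log2 difference shrank to as little as -2.53 for Kcnb2, -2.34 for Slc15a2 and 1.58 for Vmn1r205.

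Other probes of the same genes backed the directions unevenly. Of the 1644 higher genes, 392 had other detected probes, and 62.5% of those 608 probes pointed the same way, 29.9% past 2-fold. Of the 7669 lower genes, 1992 had others, and 86.8% of those 3577 probes pointed the same way, 59.9% past 2-fold. In the brighter set the shares pointing the same way were 69.0% and 83.7%.

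The difference between iPS-J and ESC was not even across chromosomes. Over 12211 genes in the brighter set of those well above background on all 4 arrays, the median difference was 0.23. It was -0.03 on chromosome 8 (668 genes) and -0.09 on chromosome 11 (978 genes). On the other 18 chromosomes with enough genes it lay between 0.21 (chromosome 17) and 0.35 (chromosome X). On chromosome 11, 75.6% of genes lay below the overall median, and on chromosome 8 it was 70.8%. The shift ran along the length of both: in bins of 20 Mb (mm9) the medians on chromosome 11 ranged from -0.12 to 0.01, and on chromosome 8 from -0.19 to 0.10. Against the same ESC array, chromosomes 8 and 11 were lowest as well in iPS-OSH, at -0.18 and -0.22, and in MEF, at -0.14 and -0.19. These 3 comparisons share the ESC array and are not separate evidence. Between iPS-J and iPS-OSH, which leaves ESC out, the medians of chromosomes 8 and 11 were 0.19 and 0.11, inside the range of the other chromosomes, -0.03 to 0.25. DNA copy number was not measured. Zfp42 and Klf2, both lower in iPS-J with differences of -4.27 and -1.56, lie on chromosome 8. Whether the chromosome's shift bears on them was not tested.

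**Figure D5:**
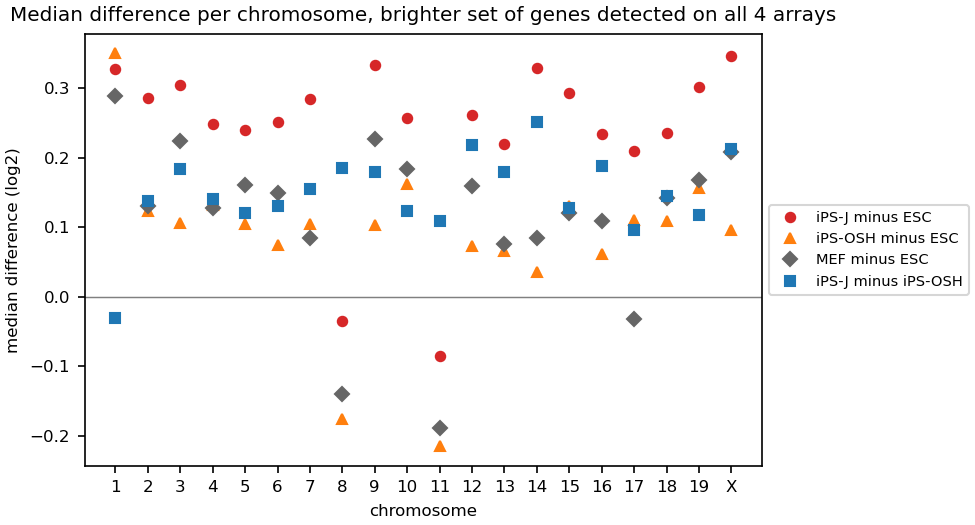
Median difference (log2) per chromosome over genes in the brighter set of those detected on all 4 arrays, for iPS-J, iPS-OSH and MEF each against ESC and for iPS-J against iPS-OSH. In the 3 comparisons with ESC, chromosomes 8 and 11 are the lowest points, and between iPS-J and iPS-OSH (blue squares) they sit among the other chromosomes.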

How the data were processed

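One RNA sample each of iPS-J and ESC (1 array per group, 4 arrays in the study) was amplified with the Low Input Quick-Amp kit and labelled with Cy3, per the labels' protocols. The deposited spot intensity values were made with Agilent Feature Extraction 10.5.1.1, per the file headers, which record background subtraction, spatial and multiplicative detrending, mm9 probe positions and no scaling between arrays. The deposited value table equals these intensities rounded to 3 significant digits (largest deviation 0.497%).

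Control spots and non-uniform or population outlier spots (531 on iPS-J, 390 on ESC) were left out. The log2 of the deposited intensity was centred on each array's 75th percentile (a signal of 1212 on iPS-J and 1281 on ESC) and averaged per probe. Depth has no count here, and the number of arrays limits the precision. A bound takes, on the dim array, the higher of the lowest signal well above background and the probe's own. Gene names are those of the files. Of 54963 probes, 26223 were matched to RefSeq by accession, 3865 by symbol and 792 by synonym. Thresholds were 2-fold, with no test, as each group holds 1 array. The steps were tested on simulated data. Python 3.11.15 (numpy 2.4.6, pandas 2.3.3, statsmodels 0.14.6) and limma 3.58.1 were used.

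The 38 gene lists and the genes described were chosen with earlier results of these data known. Genes were named by a rule: the 15 largest measured differences and 10 largest bounds in each direction, the 6 members of each list with the largest difference, and a fixed set of pluripotency, lineage, fibroblast and sex-linked genes. Further list members are given where their role helps, and genes outside the lists in the closing section were chosen after their values were seen. The 4 promoter motifs were chosen after the differences were known. Results were recomputed under 10 other settings, and under 2 more chosen after seeing the data (detection above the 95th percentile of ERCC control probes, and lowess centring over brightness with a span of 0.3).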

Additional observations from a re-analysis of the deposited data

How the results depend on the processing

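No paired analysis was possible because each group holds 1 array. The counts of genes past 2-fold, 1644 higher and 7669 lower in iPS-J, moved most with the treatment of dim signals and the scaling. Normexp background correction gave 3302 lower genes, quantile normalization 2789 higher and 3356 lower, the percentile over probes detected on all arrays 1089 higher, spike-in scaling 2533 higher, and detection on both arrays 4952 lower. The 2 alternatives added after seeing the data gave 1046 higher and 3600 lower (ERCC-based detection) and 2870 higher and 3063 lower (lowess centring). At 4-fold there were 288 higher and 1533 lower genes. The median of all genes shifted by 0.20 with quantile normalization, -0.20 with the percentile over detected probes, 0.18 with spike-in scaling, 0.16 with detection on both arrays and 0.21 with either added alternative.

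The list counts of endoderm genes higher and of 2-cell and germline genes lower stayed within 1.5 times their values at 2-fold in every alternative run. At 4-fold, 8 visceral endoderm genes and 4 basement membrane genes remained higher and 3 germline genes lower. Over all alternatives the primitive endoderm median lay between 1.54 and 1.92 and the 2-cell median between -2.84 and -1.84. Of the 224 named genes past 2-fold, between 0 and 40 fell under it in any one alternative. With the median over probes of a gene in place of the brightest probe, Ccl25 turned from 1.42 to -0.093 and Rps3 from 1.57 to -0.22, and these were the only reversals among them. Their probes disagree, and the cause was not tested. Signal over background limits all calls in the dimmer set.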

Other observations

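Several groups of genes outside the lists stood out by name, and all of them were picked after their values were seen. Of 1085 olfactory receptor genes on the array, 586 were compared, of which 378 were lower in iPS-J and 13 higher, with a median of -1.34. Vomeronasal receptors gave 103 lower and 4 higher of 156. Noncoding regions named by their coordinates gave 1789 lower and 158 higher of 4234, with a median of -0.81. These groups are dim, and 44% of all genes in the dimmer set were lower. Mitochondrial ribosomal protein genes, which are bright, gave 1 higher and 0 lower of 77, with a median of 0.27.

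Bright genes outside the lists that were higher in iPS-J included a few with iPS-J high alone. Aqp8, a water channel, gave 11683 in iPS-J, 1461 in ESC, 321 in iPS-OSH and 428 in MEF (3.08), with 3.06 at a second probe. Folr1, a folate receptor, gave 33857 against 6148 (2.54), with 2.30 at a second probe. Klb, the beta-Klotho coreceptor of FGF hormones, gave 3887 against 643 (2.68), and Hkdc1, a hexokinase-like gene, gave 5240 against 646 (3.10). Nostrin, which binds endothelial nitric oxide synthase, gave 1642 against 154 (3.49). For Aqp8, Klb, Hkdc1 and Nostrin iPS-J was high alone. Plaur, the urokinase receptor, gave 8814 against 1140 (3.03), and iPS-OSH and MEF were higher than iPS-J at 11308 and 20265.

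Other bright genes were lower. Trh, the thyrotropin-releasing hormone gene, gave 15766 in iPS-J, 95981 in ESC and 25696 in iPS-OSH (-2.53). Aurkc, an aurora kinase of meiosis, gave 978 against 8355 (-3.02), with -3.33 at a second probe. Fthl17, an X-linked ferritin-like gene, gave 1480, 9435 and 661 (-2.59), and the oocyte homeobox gene Obox6 gave 236, 2675 and 121 (-3.43). Tekt1, a tektin of cilia and sperm tails, gave 507 against 6502 (-3.60), with -3.26 at a second probe. All 9 genes of the Xlr family were lower, as were 13 of 18 Rhox genes, and 0 of either family were higher. Xlr3a and Xlr5a lie in the dimmer set, each family holds 2 bounds, and 44% of all genes in that set were lower.

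Kif5b and Prim2, a motor and a primase subunit gene, were low in ESC alone: Kif5b gave 2599 in iPS-J, 257 in ESC, 3416 in iPS-OSH and 8406 in MEF (3.42), and Prim2 gave 4881, 717, 4326 and 8727 (2.85). A second Prim2 probe gave 0.24, so the probes of that gene disagree. ESC is also the only sample of the 129SV background, and strain and cell line cannot be told apart here.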
